A study of Mus musculus with 12 samples.

Results

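The hypoxia-induced target genes described here are 33 genes that are switched on by hypoxia-inducible factors or are widely read as markers of low oxygen. They were taken by symbol from the 19937 genes that have a probe set with exactly 1 gene symbol, and all 33 were found, on 39 probe sets. Each gene was read from its brightest probe set, by the mean of all 12 tumours. The levels came from 12 whole tumours of the mouse prostate carcinoma line TRAMP-C2Re3, injected as 50000 cells into the prostate of C57BL6 mice and taken after 60 days. Of the hosts, 6 were p62 KO and 6 were wild type (WT), with 1 tumour and 1 array per mouse. The protein p62, an autophagy receptor and signalling adaptor, is encoded by Sqstm1. Every tumour was founded by the same line, which is not labelled as lacking p62, so the groups differ by the genotype of the host cells. The labels describe the hosts only as p62 KO or wild type and give no deleted exon, age or sex. Hosts lacking both p62 and IL-6, which the labels' growth protocol also mentions, were not analysed here.

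When oxygen falls, prolyl hydroxylases stop marking the HIF alpha subunits for destruction. The stabilised subunit pairs with ARNT and binds a short DNA sequence near its targets. These genes act on blood vessel growth, acid handling, mitochondrial turnover, collagen modification, glycogen storage and the demethylation of histones. Solid tumours that outgrow their vessels commonly express them.

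Every value is a log2 intensity, so a difference of 1 is a doubling, and a probe set's level cannot be set against that of another probe set. The tissue was checked against prostate epithelial markers. Of 10 measured markers on that list 7 were higher and 3 lower in KO hosts, where 57.2% of all probe sets were higher. None of these markers reached an unadjusted p under 0.05. The list mean was 5.17 in tumours of p62 KO hosts and 5.14 in tumours of WT hosts. Krt8, a keratin of luminal epithelium, had a level of 8.12 ± 0.35 in KO hosts and 8.10 ± 0.195 in WT hosts (SD, n = 6 each). Pbsn, which encodes a secreted protein of the prostate, had 3.01 ± 0.12 in KO hosts and 2.95 ± 0.12 in WT hosts. Both were chosen after their values were seen, and without detection calls a low intensity does not show that a marker is absent. Arrays of KO hosts 2 and 3 and of WT hosts 2 and 5 spanned the fewest log2 units between quartiles, at 2.26, 2.15, 2.59 and 2.47, where the other 8 arrays had 2.70 to 2.95. These 4 are called the narrow arrays. In KO hosts 2 and 3 the lower quartile stood higher, at 5.27 and 5.36, than in the other KO hosts. The difference of each of the main genes without these 4 arrays is given after the results over all 12.

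Most of the hypoxia-induced targets lay higher in tumours of p62 KO hosts, but none passed the test across the array. Of the 33 genes, 29 had a higher mean in KO hosts and 4 a lower mean, with a median difference of 0.18 (KO minus WT), against 0.02 over all 28192 probe sets tested. In limma with Benjamini-Hochberg adjustment over these probe sets, 0 of the 33 passed an adjusted p of 0.05, and the smallest adjusted p among them was 0.9935. Over the whole array 0 probe sets (0%) were called higher and 1 (0.00355%) lower. At an unadjusted p under 0.05, 10 of the 33 genes were higher and 0 lower, where 1.28% and 1.11% of all probe sets were. A mean above that of WT hosts, without any threshold, was seen in 57.2% of all probe sets. The 10 genes were Higd1a, Ankrd37, Ndrg1, Ak4, Car9, Mif, Fam162a, Bnip3, Adm and P4ha2. Averaged over the 33 genes, a tumour's level was 8.06, 7.75, 7.80, 8.14, 8.23 and 8.39 in KO hosts 1 to 6, against 7.79, 8.08, 7.59, 7.66, 7.89 and 7.74 in WT hosts 1 to 6. The groups overlapped, with KO hosts 2 and 3 the lowest of the KO hosts and WT hosts 2 and 5 the highest of the WT hosts. In a bulk tumour, a difference in the number of cells that express a gene and a difference in RNA per cell cannot be told apart.

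**Figure D1:**
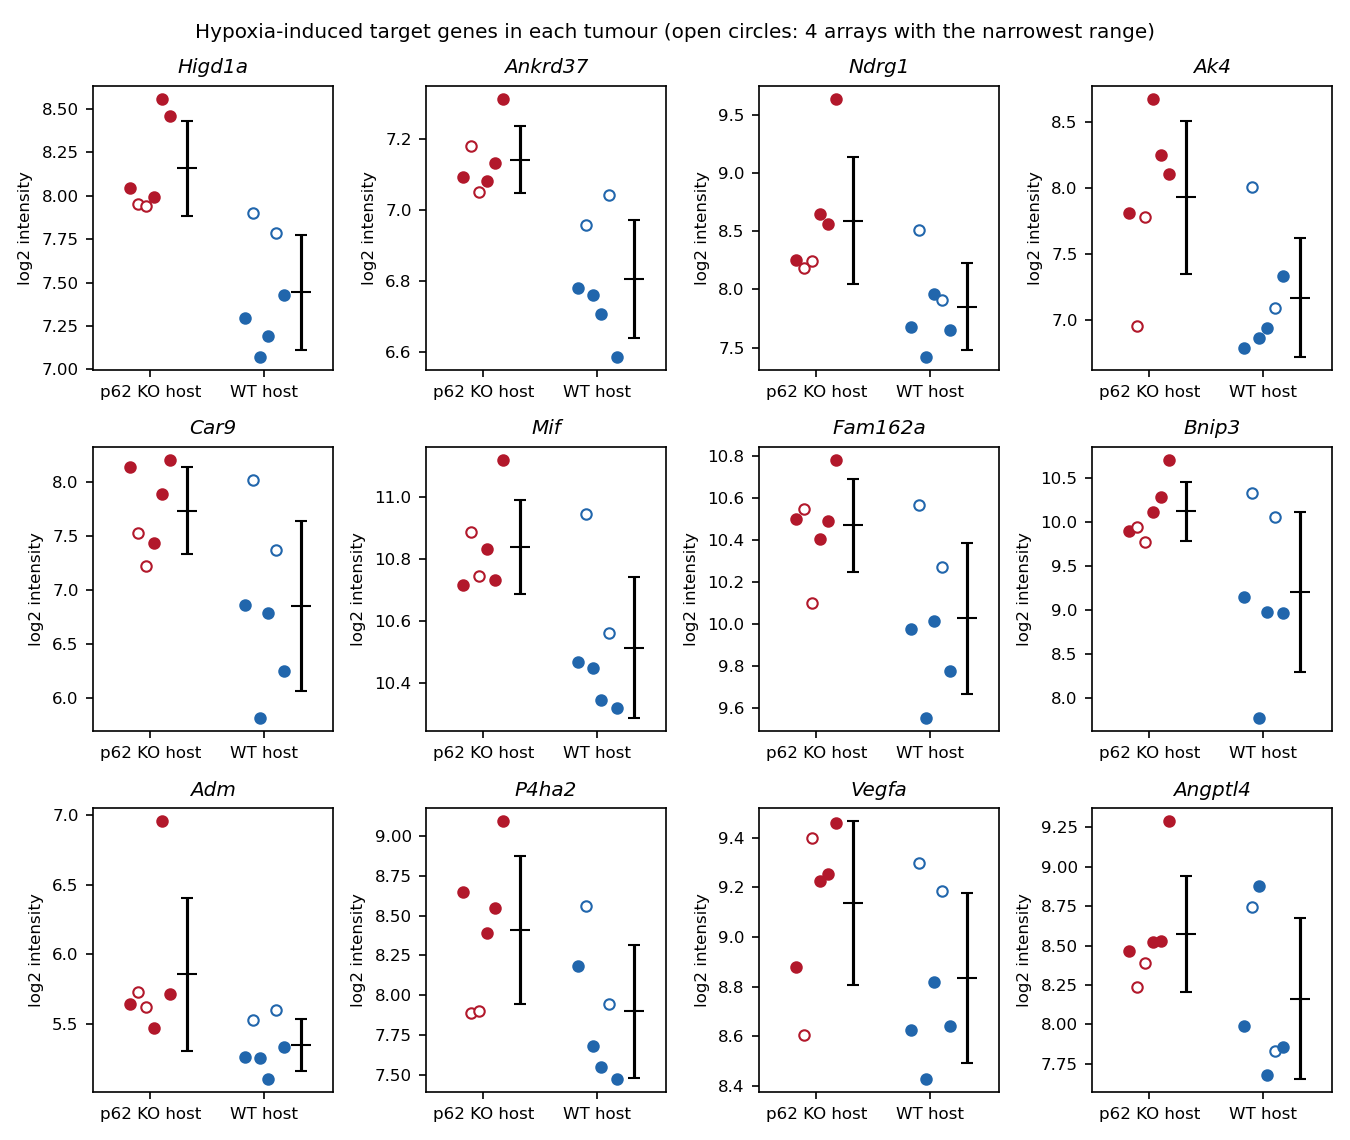
Log2 intensity (y axis) of the 10 genes that reached an unadjusted p under 0.05 and of Vegfa and Angptl4 in each tumour, p62 KO hosts on the left and WT hosts on the right of each panel, with black bars for mean ± SD (n = 6 each). Open circles are KO hosts 2 and 3 and WT hosts 2 and 5. All 6 KO tumours lie above all 6 WT tumours for Higd1a and Ankrd37. In the WT group the open circles are the 2 highest points for Higd1a, Ankrd37, Bnip3, Car9, Fam162a, Mif, Adm and Vegfa. The y axes do not start at 0.

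Of the 5 mitochondrial members, 4 were higher at an unadjusted p under 0.05. Higd1a encodes a small protein of the inner mitochondrial membrane. Its level was 8.04, 7.95, 7.94, 7.995, 8.56 and 8.46 in tumours of KO hosts, against 7.30, 7.90, 7.07, 7.20, 7.79 and 7.43 in tumours of WT hosts. All 6 KO tumours lay above all 6 WT tumours, by a margin of 7.94 to 7.90 at the closest, and the difference was 0.71 (SE 0.16, adjusted p = 0.9935). On the other Higd1a probe set, described further on, the groups overlapped and the difference was 0.40. Bnip3 encodes a receptor that marks mitochondria for autophagy. It had 9.90, 9.95, 9.77, 10.11, 10.29 and 10.70 in KO hosts, against 9.14, 10.33, 7.77, 8.97, 10.05 and 8.97 in WT hosts. The KO tumours were close together, whereas the WT tumours ranged widely, with WT hosts 2 and 5 among the KO values. KO hosts exceeded WT hosts by 0.91 (95% interval 0.17 to 1.66, adjusted p = 0.9935).

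Fam162a encodes a mitochondrial protein induced by HIF-1. Its level was 10.50, 10.55, 10.10, 10.40, 10.49 and 10.78 in KO hosts, against 9.97, 10.57, 9.55, 10.01, 10.27 and 9.77 in WT hosts, a difference of 0.44 (SE 0.16). WT host 2 stood above 5 of the 6 KO tumours. Ak4, a mitochondrial adenylate kinase, had 7.81, 6.96, 7.78, 8.67, 8.25 and 8.11 in KO hosts, against 6.79, 8.01, 6.86, 6.94, 7.09 and 7.33 in WT hosts, a difference of 0.76 (SE 0.26). KO hosts 1, 2 and 3 lay within the WT values, and WT hosts 2, 5 and 6 within the KO values. Bnip3l, the close relative of Bnip3 with the same role in mitophagy, differed by 0.06 (95% interval -0.22 to 0.35).

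Ankrd37, an ankyrin repeat protein, was the other member without overlap. Its level was 7.09, 7.18, 7.05, 7.08, 7.13 and 7.31 in KO hosts, against 6.78, 6.96, 6.76, 6.71, 7.04 and 6.58 in WT hosts, a difference of 0.34 (SE 0.09, adjusted p = 0.9935). Thus 2 of the 33 genes had all KO tumours above all WT tumours, where 0.0709% of all probe sets did. With the other Higd1a probe set it was Ankrd37 alone. For Ankrd37 the nearest tumours, KO host 3 at 7.05 and WT host 5 at 7.04, were almost level.

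The carbonic anhydrases Car9 and Car12 sit in the cell membrane and turn carbon dioxide into bicarbonate and protons outside the cell. Car9 had 8.13, 7.53, 7.22, 7.43, 7.89 and 8.20 in KO hosts, against 6.86, 8.02, 5.81, 6.79, 7.37 and 6.25 in WT hosts. The lowest KO tumour, at 7.22, lay above 4 of the 6 WT tumours, and WT hosts 2 and 5 lay within the KO range. The difference was 0.88 (SE 0.32, 95% interval 0.21 to 1.56, adjusted p = 0.9935), a fold of 1.85. Car12 averaged 6.14 ± 0.33 in KO hosts and 5.91 ± 0.26 in WT hosts (SD, n = 6 each), a difference of 0.23 (SE 0.16).

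HIF dimers bind the letters ACGTG or GCGTG, and these letters were looked for on both strands in the 250 bases before the start sites of RefSeq (build GRCm38.p6). An entry was found for 26 of the 33 genes, and for Angptl4, Stc1, Bnip3l, Plod2, Kdm4b, Bhlhe40 and Ndrg1 it was not. At least 1 match was present in 21 of the 26 genes, or 80.8%, where 49.9% of 15613 genes of the array held it. Both letter strings contain CG, and the promoters differed in that too, with a median of 20 CG pairs in the 26 genes against 12 in all genes. Overlapping matches were counted separately. The upstream sequences of the 2 genes without overlap and of the 2 with the widest differences are printed in coding orientation, with matches on either strand in capitals.
Ankrd37, chr8:45999851-46000100, minus strand: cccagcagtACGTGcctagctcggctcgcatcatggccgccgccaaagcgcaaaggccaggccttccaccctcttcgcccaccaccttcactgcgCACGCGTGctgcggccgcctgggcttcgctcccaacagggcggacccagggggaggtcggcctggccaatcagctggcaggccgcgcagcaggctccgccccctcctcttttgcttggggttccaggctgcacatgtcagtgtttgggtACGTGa
Higd1a, chr9:121857797-121858046, minus strand: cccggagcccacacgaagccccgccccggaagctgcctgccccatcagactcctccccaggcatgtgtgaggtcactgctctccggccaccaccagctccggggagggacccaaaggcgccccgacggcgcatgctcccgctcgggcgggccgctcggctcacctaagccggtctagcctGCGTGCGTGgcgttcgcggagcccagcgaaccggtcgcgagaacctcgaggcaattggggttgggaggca
Car9, chr4:43506776-43507025, plus strand: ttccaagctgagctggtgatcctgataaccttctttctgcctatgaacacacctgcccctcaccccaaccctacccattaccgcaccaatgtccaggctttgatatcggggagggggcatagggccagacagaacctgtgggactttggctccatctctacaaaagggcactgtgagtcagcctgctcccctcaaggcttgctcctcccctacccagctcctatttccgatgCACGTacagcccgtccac
Bnip3, chr7:138909507-138909756, minus strand: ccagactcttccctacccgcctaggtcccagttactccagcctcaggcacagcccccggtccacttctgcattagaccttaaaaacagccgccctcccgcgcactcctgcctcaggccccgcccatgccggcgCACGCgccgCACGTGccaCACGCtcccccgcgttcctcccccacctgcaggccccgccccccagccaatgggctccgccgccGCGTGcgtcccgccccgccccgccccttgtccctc
In Ankrd37 the match nearest to the start begins 6 bases before it, and in Car9 the only match begins 18 bases before it. Bnip3 holds 5 matches and Higd1a 2, which share a base. Car12, Gbe1, Gys1, Mif and Vldlr had no match in this window. A match is a string of letters, and binding was not measured.

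Among the secreted factors, all 7 lay higher in KO hosts, 2 of them at an unadjusted p under 0.05. Vegfa, the main growth factor of blood vessels, had 8.88, 8.61, 9.40, 9.23, 9.26 and 9.46 in KO hosts, against 8.63, 9.30, 8.42, 8.82, 9.19 and 8.64 in WT hosts. The groups overlapped over most of their range, and the difference was 0.30 (95% interval -0.08 to 0.69, adjusted p = 0.9935). Mif, a cytokine that acts on macrophages, had 10.71, 10.88, 10.74, 10.83, 10.73 and 11.12 in KO hosts, against 10.47, 10.95, 10.45, 10.34, 10.56 and 10.32 in WT hosts. Only WT host 2 reached into the KO values, and the difference was 0.32 (SE 0.12). Adm, which encodes the vessel-dilating peptide adrenomedullin, had 5.65, 5.73, 5.62, 5.47, 6.96 and 5.72 in KO hosts, against 5.27, 5.53, 5.26, 5.10, 5.60 and 5.33 in WT hosts. KO host 5 stood far above every other tumour, and the difference of 0.51 was 0.29 without it (adjusted p = 0.911). Angptl4, an inhibitor of lipoprotein lipase, had 8.47, 8.24, 8.39, 8.52, 8.53 and 9.29 in KO hosts, against 7.99, 8.74, 8.88, 7.68, 7.84 and 7.86 in WT hosts. WT hosts 2 and 3 exceeded 5 of the KO tumours, and the difference was 0.41 (SE 0.23), or 0.27 without KO host 6. Pgf, a relative of Vegfa that binds the receptor Flt1, differed by 0.30 (SE 0.17). The stanniocalcins Stc1 and Stc2, secreted glycoproteins, differed by 0.12 and 0.15.

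Collagen is hydroxylated by enzymes that need oxygen themselves. P4ha1 and P4ha2 are catalytic subunits of prolyl 4-hydroxylase, and Plod1 and Plod2 hydroxylate lysine. P4ha2 had 8.65, 7.89, 7.90, 8.39, 8.54 and 9.09 in KO hosts, against 8.18, 8.56, 7.68, 7.55, 7.95 and 7.47 in WT hosts, a difference of 0.51 (SE 0.23). KO hosts 2 and 3 stood apart from the other 4 KO tumours. KO hosts 2, 3, 4 and 5 lay within the WT values. P4ha1, Plod1 and Plod2 differed by 0.16, 0.17 and 0.05, and in each of them KO hosts 2 and 3 were below all 6 WT tumours.

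Among the regulators, Ndrg1, a stress-responsive gene that is also used as a hypoxia marker, had 8.26, 8.19, 8.24, 8.65, 8.56 and 9.64 in KO hosts, against 7.67, 8.51, 7.41, 7.96, 7.91 and 7.65 in WT hosts. KO host 6 was far above the rest and WT host 2 was the only WT tumour within the KO values. The difference was 0.74 (SE 0.24, adjusted p = 0.9935), or 0.53 without KO host 6. Rora, a nuclear receptor of the circadian clock, differed by 0.19, and Ankzf1, which acts in the rescue of stalled ribosomes, by 0.12. Bhlhe40, a transcriptional repressor, differed by 0.10, Wsb1, a substrate receptor of a ubiquitin ligase, by 0.07 and Narf, a nuclear factor that binds prelamin A, by -0.01. Ddit4, an inhibitor of mTORC1 signalling, differed by 0.03 (95% interval -0.17 to 0.24).

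The dioxygenases Kdm3a and Kdm4b remove methyl groups from histones, and Jmjd6 is an oxygenase of the same superfamily. Their differences were -0.01, 0.18 and 0.06. Kdm4b averaged 6.58 ± 0.14 in KO hosts and 6.40 ± 0.10 in WT hosts (SD, n = 6 each), and its lowest KO value lay below 3 WT tumours. In the glycogen and lipid group, 2 of 4 genes were higher and 0 reached an unadjusted p of 0.05. Gys1, the glycogen synthase of muscle and most other tissues, differed by 0.32 (SE 0.19), and Ppp1r3c, which directs a phosphatase to glycogen, by 0.15. The branching enzyme gene Gbe1 differed by -0.10. Vldlr, a receptor for triglyceride-rich lipoproteins, was the member with the largest negative difference, -0.36 (SE 0.30), with WT values spread between 6.75 and 8.46.

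**Figure D2:**
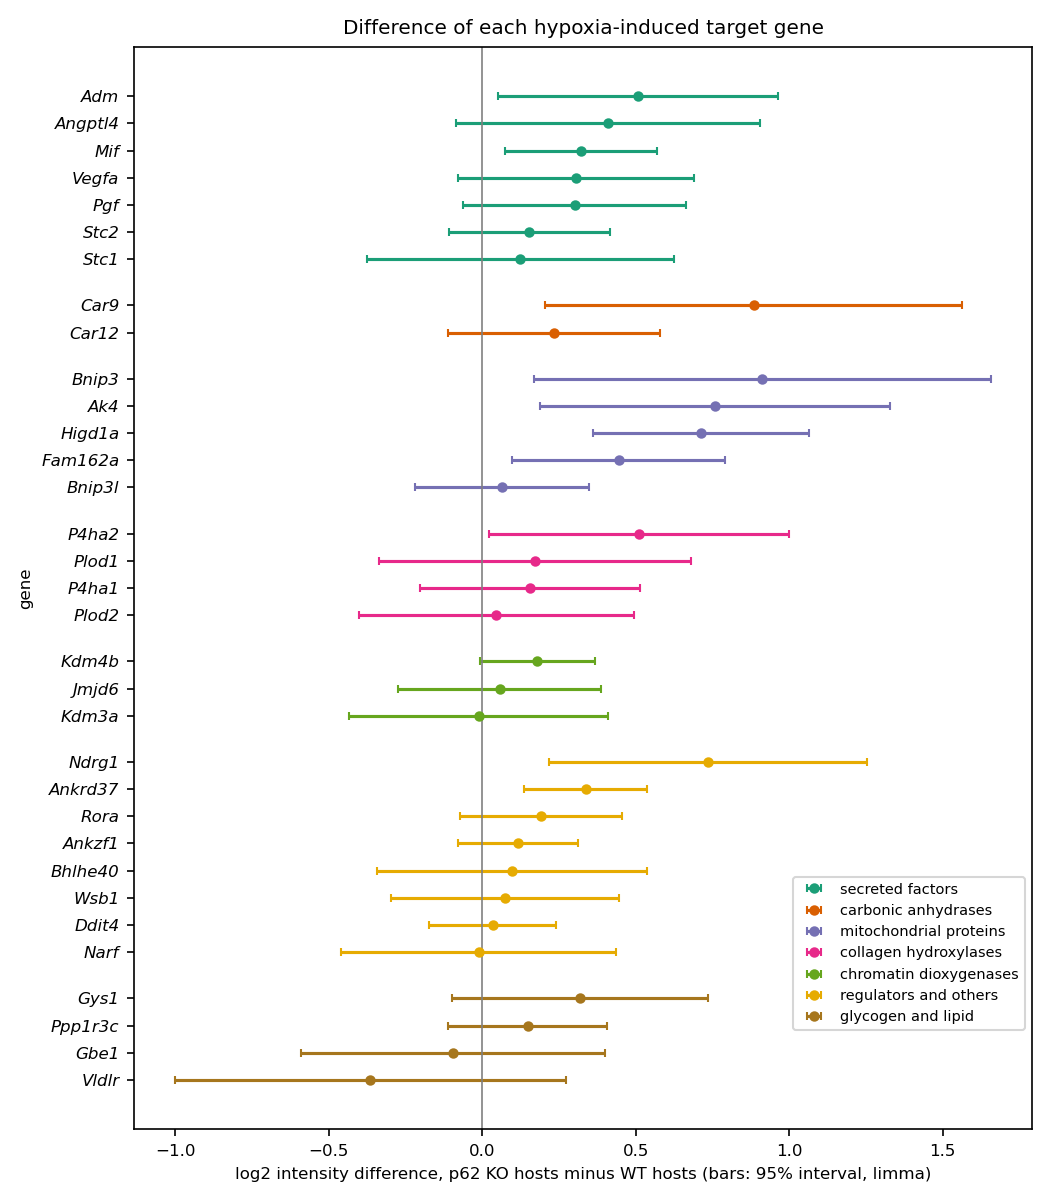
Difference of the log2 intensity between p62 KO hosts and WT hosts (x axis) for each of the 33 genes, grouped by role, with 95% intervals from limma (6 tumours per group, intervals not adjusted for multiple tests). Points lie to the right of 0 for 29 genes, and the interval of Vldlr is among the widest.

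The brightest probe set of a gene did not always have neighbours from the gene's own chromosome. For 5 members there were several probe sets, and those of a gene shared a RefSeq transcript in the platform annotation. The 10 nearest named probe sets on either side by identifier were looked up for each. The brightest Higd1a probe set stood among 20 named neighbours whose genes all lie on chromosome 3, while the Higd1a gene lies on chromosome 9. The other Higd1a probe set had its neighbours on chromosome 9. There the level was 7.66, 7.34, 6.73, 7.65, 8.03 and 7.43 in KO hosts, against 6.95, 7.35, 6.58, 6.93, 7.48 and 7.16 in WT hosts. The groups overlapped on this probe set, and its difference was 0.40 (95% interval -0.03 to 0.83), with r = 0.78 between both probe sets over 12 tumours as a description. The brightest Bnip3, Ak4 and Mif probe sets had their neighbours on chromosomes 14, 2 and 9, and the genes lie on chromosomes 7, 4 and 10. On the probe sets with neighbours on the gene's own chromosome, the differences were 0.80 for Bnip3, 0.50 for Ak4 and 0.46 for Mif. With those probe sets, 9 instead of 10 of the 33 genes were higher at an unadjusted p under 0.05, the gene lost being Higd1a. Whether the brightest probe sets read a second copy of the sequence was not tested.

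**Figure D3:**
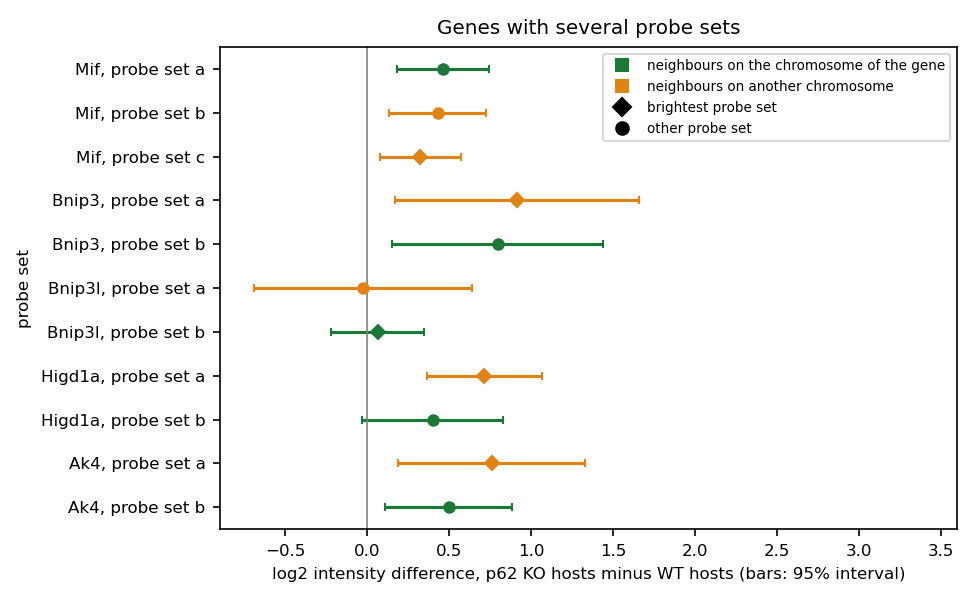
Difference between p62 KO hosts and WT hosts (x axis, log2 intensity, 95% intervals) on each probe set of the 5 genes that have several. Green marks probe sets whose neighbours by identifier lie on the chromosome of the gene and orange those whose neighbours lie on another, and diamonds mark the brightest probe set. For Higd1a the interval excludes 0 on the orange probe set and includes it on the green one.

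KO hosts 2 and 3, whose arrays were the narrowest, split the genes. In 16 of the 33 genes both were below the other 4 KO tumours, where 24.3% of all probe sets showed this. In 8 of these, Bnip3l, P4ha1, Plod1, Plod2, Kdm3a, Bhlhe40, Wsb1 and Narf, both were also below all 6 WT tumours, against 17.6% of all probe sets. Plod2, for example, had 9.24 and 9.41 in KO hosts 2 and 3, against 10.28 to 10.39 in the other KO hosts and 9.70 to 10.32 in WT hosts. In Adm, Stc2, Higd1a, Kdm4b, Ankrd37 and Ppp1r3c both lay above all 6 WT tumours, against 27.8% of all probe sets. Stc2, Ddit4 and Ppp1r3c were the genes in which both exceeded the other 4 KO tumours, against 39.3% of all probe sets. Over all probe sets these 2 arrays also stood apart, more often above the other 4 KO tumours (39.3%) than below them (24.3%). In these 33 genes both lay below more often than above, and the split followed intensity. The 16 genes below had WT means of 7.059 (Narf) to 10.6 (Bnip3l), and the 3 above 4.321 (Ppp1r3c) to 6.796 (Ddit4). The upper quartiles of KO hosts 2 and 3 were lower, at 7.531 and 7.505, against 7.729 to 7.805 in the other KO hosts. Their medians over all probe sets were 6.405 and 6.444, below their means over these genes, 7.746 and 7.802. The shares of all probe sets are thus not matched to these genes in intensity. The reason was not tested.

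Without these 2 and without WT hosts 2 and 5, 4 tumours per group remained. The tumours left out were also the 2 lowest KO tumours and the 2 highest WT tumours by the mean of these 33 genes, so leaving them out widens the gap for these genes by construction. Then 31 of the 33 genes were higher in KO hosts, with a median difference of 0.42, against -0.00567 over all probe sets. The share of all probe sets higher in KO hosts was not counted in these 8 tumours. At an unadjusted p under 0.05, 22 of the 33 genes were higher, where 2.56% of all probe sets were, and 0 passed the adjusted threshold. In 17 of the 33 genes all 4 KO tumours lay above all 4 WT tumours, against 1.39% of all probe sets. Bnip3 then averaged 10.25 ± 0.34 in KO hosts and 8.71 ± 0.63 in WT hosts (SD, n = 4 each), a difference of 1.54 (SE 0.28, adjusted p = 0.306 in limma). Car9 averaged 7.91 ± 0.35 and 6.43 ± 0.49, a difference of 1.49, and Higd1a differed by 1.02 with an adjusted p of 0.132, the smallest of the members. The difference was 1.23 for Ak4, 1.10 for Ndrg1, 0.72 for Fam162a, 0.71 for Adm and 0.60 for Angptl4. It was 0.95 for P4ha2, 0.47 for Plod2, 0.44 for Plod1 and 0.42 for P4ha1. Gys1 differed by 0.68, Vegfa by 0.58, Bhlhe40, Mif and Ankrd37 by 0.45 each, and Kdm3a by 0.38. Smaller values were 0.36 for Stc1, 0.33 for Wsb1, 0.29 for Gbe1, 0.29 for Jmjd6, 0.28 for Bnip3l, 0.25 for Narf and 0.19 for Ankzf1. Vldlr differed by -0.0752, against -0.36 over all tumours. Leaving out only KO hosts 2 and 3 gave 20 of 33 genes at an unadjusted p under 0.05, where 3.49% of all probe sets were. With array weights it was 22 of 33, where 3.47% were, and with the range of each array as a covariate 14 of 33, where 3.32% were. Why these arrays are narrow was not tested.

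**Figure D4:**
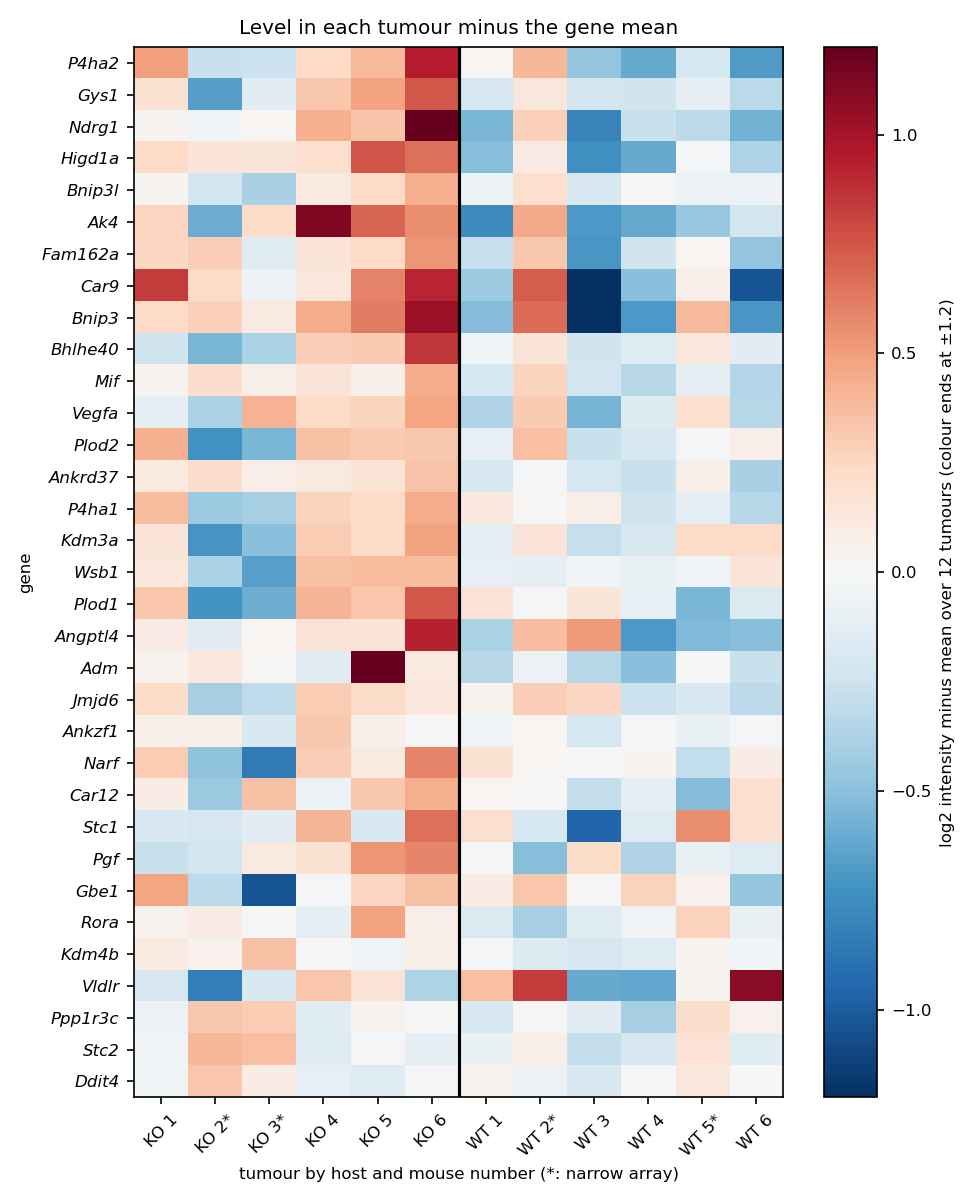
Level of each gene (rows) in each tumour (columns, p62 KO hosts left of the line) as log2 intensity minus the mean over the 12 tumours. Red is above and blue below that mean, and asterisks mark the 4 narrow arrays. KO host 6 is the highest tumour in 20 of the 33 genes and WT host 3 the lowest in 11. Their arrays had the widest ranges between quartiles, at 2.95 and 2.94. How often these tumours are highest or lowest over all probe sets was not counted.

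The levels of most members were positively correlated across tumours. Over the 528 pairs of members, the median Pearson correlation over the 12 tumours was 0.38, with 83.9% of pairs above 0, against 0.01 and 50.6% over all pairs of genes on the array. With each host group's mean removed the median was 0.30. It was 0.43 within the 6 KO hosts and 0.30 within the 6 WT hosts. The pairs share tumours and arrays and are not independent, so these values are descriptions. The closest pairs were Car9 with Fam162a (r = 0.97), Bnip3 with Fam162a (r = 0.94) and Car9 with Bnip3 (r = 0.93). Another set of high values joined Plod2 with Kdm3a (r = 0.92), P4ha1 with Plod1 (r = 0.91) and Plod1 with Narf (r = 0.91). At the other end stood Jmjd6 with Ddit4 (r = -0.78) and Stc2 with Narf (r = -0.78), and in the 8 tumours with wider arrays these 2 were -0.62 and 0.41. In those 8 tumours the median over pairs was 0.60, against -0.001 over all pairs of genes. Those left out were also the lowest KO and highest WT tumours by the mean of these genes. The wider gap between hosts that remains can by itself raise these correlations, and host means were not removed there.

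**Figure D5:**
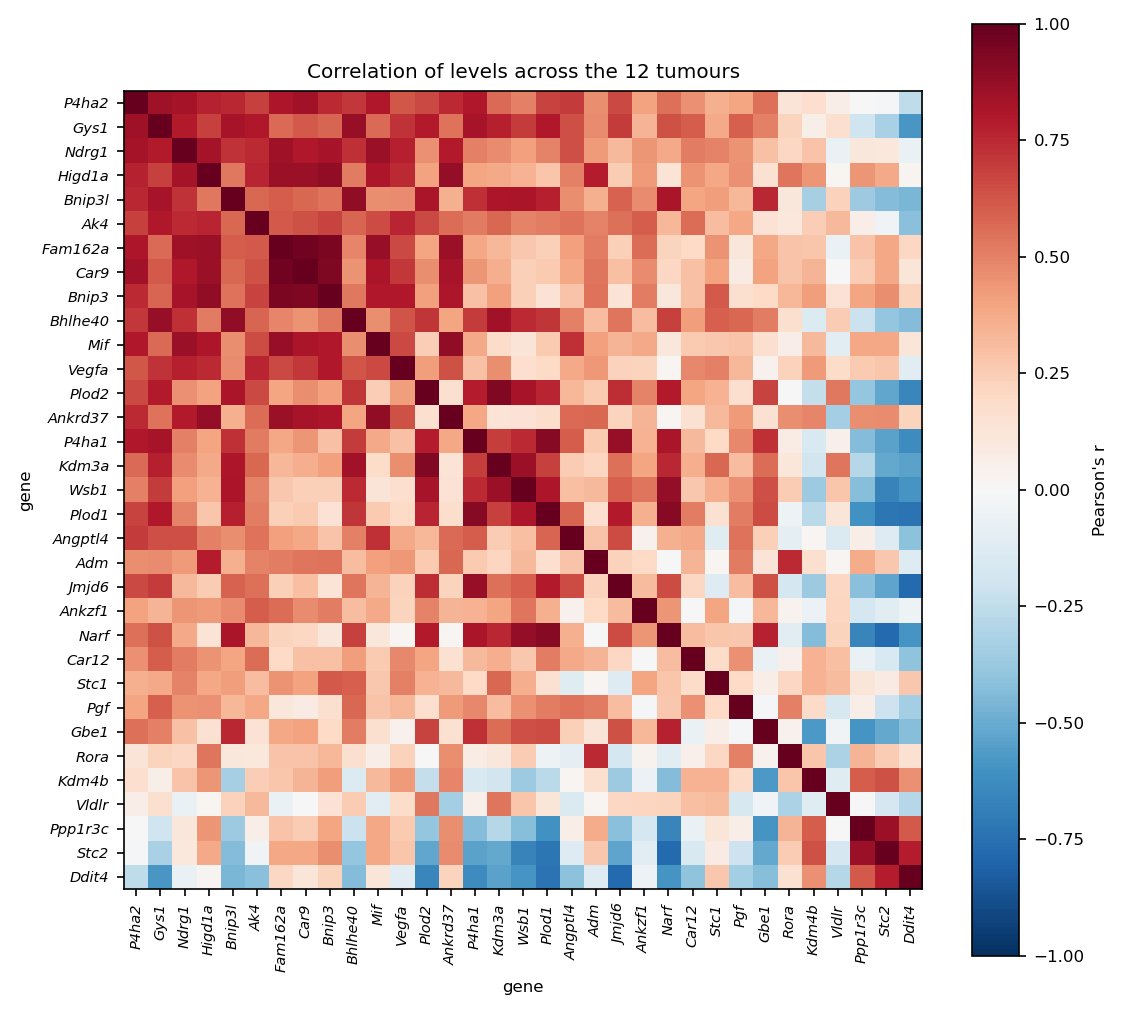
Pearson's r between the levels of each pair of the 33 genes over the 12 tumours (both axes list genes, ordered by their correlation with the mean of the other members). Red squares at the upper left join P4ha2, Gys1, Ndrg1, Higd1a, Car9, Bnip3 and Fam162a, and blue squares along the lower edge belong to Ddit4, Stc2 and Ppp1r3c.

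Set against the mean of the other 32 members, P4ha2 (r = 0.92), Gys1 (0.90), Ndrg1 (0.87) and Higd1a (0.86) followed the rest most closely over the 12 tumours. Ddit4 (-0.30), Stc2 (-0.06) and Ppp1r3c (0.03) had the lowest values. Without the narrow arrays the values were 0.91 for P4ha2, 0.97 for Gys1, 0.92 for Ndrg1 and 0.97 for Higd1a. They were then -0.07 for Ddit4, 0.64 for Stc2 and 0.50 for Ppp1r3c. Within KO hosts Stc2 and Ppp1r3c had -0.90 and -0.78, and within WT hosts 0.85 and 0.52 (n = 6 each). In both genes KO hosts 2 and 3, with narrow arrays, stood above the other 4 KO tumours. These 2 were the lowest KO tumours by the mean of the 33 genes. Ppp1r3c was dim, at 4.47 in KO hosts and 4.32 in WT hosts. The difference in r between the host groups was not tested. Each member was also set against Vegfa, 32 relations in all. Bnip3 had r = 0.80 (permutation p = 0.00057, adjusted p = 0.0182) and rho = 0.74 (permutation p = 0.00831, adjusted p = 0.0665). Ndrg1 had r = 0.78 (permutation p = 0.00139, adjusted p = 0.0222) and rho = 0.79 (permutation p = 0.00361, adjusted p = 0.0622). These 2 were the only relations to pass by r, and 0 passed by rho, with 31 of 32 values of r above 0. Of all 19936 other genes, 55.2% had r above 0 with Vegfa, and 0.145% had r as high as Ndrg1 or higher. Without WT host 3 and KO host 6, the tumours farthest from the median Vegfa level, r was 0.68 for Bnip3 and 0.69 for Ndrg1, and 0 relations passed over the 10 tumours left, which also span a narrower range of Vegfa. The 2 calls thus were not kept without those tumours. With host means removed 0 passed either, and without the 4 narrow arrays 13 passed by r and 8 by rho. Leaving those arrays out widens the gap between hosts in these genes, which can by itself raise r. Shares over all genes were not counted in these other settings. For Bnip3, r was 0.47 within KO hosts and 0.94 within WT hosts, with rho of 0.37 and 0.83 (n = 6 each, two-sided exact permutation p = 0.364 and 0.00972 for r, not adjusted). That difference between the host groups was not tested.

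Other genes of the pathway lay mostly in the same direction, and 0 passed the adjusted threshold. Of 16 measured genes of glycolysis and glucose uptake, 14 were higher in KO hosts, 6 of them at an unadjusted p under 0.05, with a median difference of 0.31. Over all probe sets 57.2% were higher in KO hosts and 1.28% were higher at that level. The glucose transporter gene Slc2a1 differed by 0.82 and the lactate exporter gene Slc16a3 by 0.38. Of 18 other measured hypoxia targets, 16 were higher and 5 reached that level, among them Ero1a, an oxidase of protein folding, at 0.80 and Hmox1, which degrades haem, at 0.63. The 10 genes of oxygen sensing were divided, with 5 higher and 5 lower and a median of 0.01. Within them Egln3, a prolyl hydroxylase gene that is itself a HIF target, differed by 0.91, and Epas1, which encodes an alpha subunit, by -0.22.

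Marker lists of other cells and states were read in the same tumours. They stand beside 57.2% of all probe sets higher in KO hosts, and 1.28% higher at an unadjusted p under 0.05. Of 12 neutrophil markers 10 were higher in KO hosts and 4 reached an unadjusted p under 0.05, with a list mean between 5.40 and 6.17 in KO hosts and between 5.27 and 5.80 in WT hosts. The highest list means belonged to KO hosts 2 and 3, at 6.17 and 6.10. These 2 narrow arrays also had the highest means of the prostate epithelial, skeletal muscle and adipocyte lists. They did not have the highest macrophage, endothelial, fibroblast, lymphocyte or proliferation means. The part of array range in these values was not tested. Of 9 genes that react to the handling of tissue, 8 were higher and 3 reached that level, with list means of 7.35 to 7.74 in KO hosts and 7.10 to 7.46 in WT hosts. Macrophage markers were higher in 11 of 12 and endothelial markers in 9 of 12, with 0 and 1 at that level. Their list means were 9.15 to 9.76 and 6.796 to 7.335 in KO hosts, and 9.13 to 9.51 and 6.71 to 7.21 in WT hosts. Fibroblast markers were divided, 6 higher and 6 lower, and proliferation genes were lower in 9 of 11, with 0 in either list at that level. Of 9 measured adipocyte markers 8 were higher, 1 at that level, with list means of 6.37 to 6.73 in KO hosts and 5.86 to 6.42 in WT hosts. Skeletal muscle markers were higher in 8 of 10, with 0 at that level and list means of 5.72 to 6.10 in KO hosts and 5.65 to 5.81 in WT hosts. Lymphocyte markers were higher in 6 of 9, with 1 at that level. The part of these lists in the levels of the hypoxia-induced genes was not tested.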

How the data were processed

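The authors deposited 1 table of log2 intensities per probe set for 12 single-colour arrays, 1 per tumour, and the submitters' processing notes name RMA (background correction, normalization and probe summary) without a version. Per the labels' protocols, total RNA was extracted with TRIzol and amplified with the Ovation Pico WTA kit. Of 34760 rows, the 6568 with identifiers below those of the annotated probe sets were left out as controls, a boundary set after the table was seen. Of the 28192 probe sets tested, 21640 have 1 gene symbol in the platform annotation, 1321 several and 5231 none. Detection calls were not used here, and the number of arrays limits the precision.

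Hosts were compared with limma 3.58.1 (lmFit and eBayes, two-sided, no covariate) in R 4.3.3, with Benjamini-Hochberg adjustment over the 28192 probe sets and a threshold of 0.05. The test was tried on simulated data. Correlations with Vegfa used 100000 permutations, or all permutations for 8 or fewer tumours, adjusted over 32 relations. The members, gene lists and tests were chosen with earlier results of these data known. All members are named, and values per tumour are given for Vegfa, Car9, Bnip3, Angptl4 and the 10 members with the smallest unadjusted p. From other lists the text names genes among the 4 with the smallest unadjusted p, with exceptions stated. Alternatives covered array scaling, dim probe sets, probe set choice, variance moderation, array weights, array range, the mouse number as a block and left-out tumours. The choice of probe set by neighbouring genes was added after seeing the data. Plots were drawn with matplotlib 3.10.9.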

Additional observations from a re-analysis of the deposited data

Results flagged for a closer look

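Of 66 groups of 6 tumours (33 genes in each host group), 5 held a tumour far from the other 5, by Dixon's test at the 95% level. Chance flags about 1 in 20 such groups. Adm in KO host 5 stood at 6.96, with the other KO tumours between 5.47 and 5.73. Rora in the same tumour stood at 6.97, with the others between 6.37 and 6.58. In KO host 6, Ndrg1 stood at 9.64, against 8.19 to 8.65 in the other KO tumours, and Angptl4 at 9.29, against 8.24 to 8.53. In WT host 6, Wsb1 stood at 9.98, with the other WT tumours between 9.71 and 9.79.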

How the results depend on the processing

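Over 25 alternatives 0 of the 33 genes were called (smallest adjusted p 0.132, without the 4 narrow arrays), and 25 genes kept their direction in every alternative that measured them. How many of all probe sets kept their direction was not counted. The dim filter removed Ppp1r3c. The count of genes higher at an unadjusted p under 0.05, 10 in the reported setting, was 22 with array weights and 20 without KO hosts 2 and 3. It was 22 without these and WT hosts 2 and 5, where the median difference was 0.42, against -0.00567 over all probe sets. With the mouse number as a replicate block the count was 9, where 268 of 28192 probe sets were higher at that level. Same-numbered tumours did not deviate together (r from -0.55 to 0.37), so the numbers were not taken as pairs. With 1 tumour left out, the count lay between 8 and 14, where 255 to 537 of 28192 probe sets were higher at that level. The median difference lay between 0.17 and 0.26, where that over all probe sets was at most 0.037. Direction turned in genes near 0. Kdm3a was 0.0369 with quantile normalization, 0.28 with array weights, 0.0569 with array range as a covariate, 0.29 without KO hosts 2 and 3 and 0.38 without all 4 narrow arrays. Narf was 0.21, 0.0876, 0.32 and 0.25 in the last 4 of these. Gbe1 was 0.16 with array weights, 0.22 without KO hosts 2 and 3 and 0.29 without all 4. Ddit4 was -0.000878 with a common median, -0.0581 with array weights, -0.0634 without KO hosts 2 and 3 and -0.0387 without all 4. With 1 tumour left out, Kdm3a lay between -0.11 and 0.13, Narf between -0.13 and 0.15, Gbe1 between -0.20 and 0.10, Ddit4 between -0.0296 and 0.0681, Plod2 between -0.0338 and 0.20, Bnip3l between -0.0174 and 0.15, Bhlhe40 between -0.0649 and 0.22 and Stc1 between -0.0541 and 0.25. The count of relations with Vegfa that passed, 2 as reported, was 0 with host means removed, 5 with quantile normalization and 5 with a common median. It was 13 without the 4 narrow arrays and 0 without the 2 farthest tumours. How many of all genes would pass was not counted in these alternatives. The median correlation over pairs was 0.60 without the 4 narrow arrays. That setting also widens the gap between hosts in these genes, which can raise this median and the count of 13. The cause of these shifts was not tested.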
